A study of Mus musculus with 9 samples.

Results

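The early response of cultured mouse marrow cells to interleukin 5 (IL-5) is described here gene by gene, from the 3 arrays of cells that had received IL-5 for 4 days against the 3 arrays of cells taken before IL-5. These are 6 of the 9 arrays in the series, and 19938 genes could be compared. The arrays were chosen by their titles, and each gene was represented by its brightest probe set over all arrays. The cells were low-density bone marrow cells, the light fraction of marrow that holds progenitors, from Balb/c mice. All groups shared 4 days of expansion in 100 ng/mL of 2 growth factors, stem cell factor and FLT3 ligand. The group before IL-5 had no further stimulus. The day 4 group then received IL-5 for 4 days, and the remaining group received it for 10 days. The day 10 arrays are shown for side-by-side levels. They also entered the choice of the brightest probe set and the spread behind each SE and adjusted p. A culture kept without IL-5 for the same time is not analysed here, so IL-5, time in culture and any change of the 2 expansion factors cannot be told apart. Marrow was pooled and the labels do not state separate cultures or animals for the arrays of a group, so a p-value here reflects only how much these samples vary among themselves, which may be technical.

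IL-5 binds a receptor made of its own alpha chain and a shared beta chain and signals through JAK2 and STAT5. It drives committed progenitors to become eosinophils, granulocytes that fill their granules with cationic proteins, ribonucleases and a peroxidase. Stem cell factor and FLT3 ligand support early progenitors and, in the case of FLT3 ligand, dendritic cells, so such a culture holds several lineages at the start.

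Values are log2 signals, on which a difference of 1 is a 2-fold change, and differences are day 4 minus before IL-5. A gene passes the test, or is called, if it differed at least 2-fold between the groups and limma gave an adjusted p under 0.05. Only a gene past both limits is said to have risen or fallen. By that rule 682 genes rose (3.42% of those tested) and 420 fell (2.11%), or 1102 in either direction (5.53%). All 1102 had day 4 arrays that did not overlap those before IL-5, an arrangement that 43.6% of all genes had. Rises were the larger changes. Among genes that changed at least 4-fold, 153 rose and 31 fell, and past 16-fold 8 rose and 1 fell. The bulk of the genes leaned the other way. All 3 day 4 arrays lay below all 3 earlier arrays for 28.3% of genes and above them for 15.3%, and the median change over all genes was -0.11. That median was -0.05 after quantile normalization, under which 722 genes rose and 359 fell, so falls made up 33.2% of the calls there and 38.1% in the deposited values. Correlations across genes were 0.992 to 0.995 within the group before IL-5, 0.995 to 0.996 within the day 4 group and 0.966 to 0.969 between them.

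**Figure D1:**
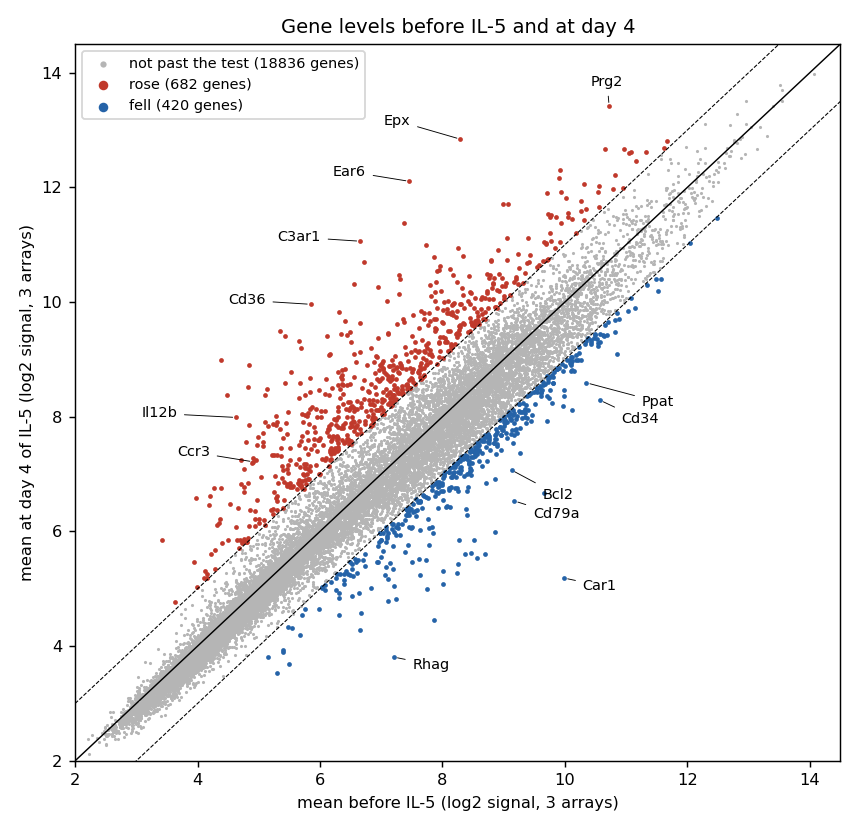
Mean log2 signal of each of the 19938 genes before IL-5 (horizontal axis, 3 arrays) and at day 4 (vertical axis, 3 arrays), with the line of equal level and dashed lines at a 2-fold change. The 682 genes that rose (red) spread farther from the line than the 420 that fell (blue), with Epx, Ear6 and C3ar1 high above it and Car1 and Rhag far below.

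The labelled marrow origin was checked against defining markers of 11 cell types. All 6 eosinophil markers rose, and the mean over those markers went from between 7.21 and 7.39 in the arrays before IL-5 to between 9.90 and 10.02 at day 4. All 6 neutrophil markers also rose (9.82 to 10.19 before, 11.81 to 11.92 at day 4), as did all 6 monocyte and macrophage markers (6.76 to 6.98 before, 9.68 to 9.81 at day 4). Of the dendritic cell markers 2 of 6 rose. Of the erythroid markers 4 of 5 fell, from between 7.41 and 7.55 to between 4.98 and 5.16, and of the B cell markers 4 of 5 fell, from between 8.08 and 8.17 to between 6.26 and 6.43. Of the progenitor markers 3 of 6 fell (8.36 to 8.39 before, 7.49 to 7.59 at day 4). None of the 4 megakaryocyte and none of the 6 fibroblast and endothelial markers passed the test, 1 of 6 basophil and mast cell markers fell (8.37 to 8.48 before, 8.20 to 8.32 at day 4), and of the T and NK cell markers 1 of 5 fell, with Cd3g and Klrb1c below 4.66, the lower quartile of all gene means, in both groups. The day 4 culture therefore carried markers of several myeloid lineages together. In these bulk samples fewer cells of a type and less RNA per cell cannot be told apart, and the part of any cell type in the gene changes below was not tested.

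Eosinophil granule genes were among the largest rises, with Ear6, Epx and Prg3 all in the top 25. Ear6, an eosinophil-associated ribonuclease, was at 7.44, 7.60 and 7.34 before IL-5 and at 12.06, 12.12 and 12.14 at day 4. Prg3, a homologue of major basic protein, was at 7.21, 7.56 and 7.32 and then at 11.48, 11.33 and 11.30. In both genes every day 4 array stood far above every earlier one, with changes of 4.64 (SE 0.109, adjusted p = 6.9e-11) and 4.01 (SE 0.115, adjusted p = 4.33e-10). Of 7 measured granule and ribonuclease genes 4 rose. Rnase2a, another ribonuclease of the same family, went the other way, from 6.45, 6.54 and 6.28 to 5.33, 5.55 and 5.03. It fell by 1.12, but by less than 2-fold without the third day 4 array, and members of this family are similar enough in sequence that their probe sets may share signal.

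Receptors and maturation genes of eosinophils were called almost as a block, with 14 of 16 risen and a median change of 1.84. C3ar1, the receptor of complement fragment C3a, was at 6.18, 7.03 and 6.75 before IL-5 and at 11.01, 10.99 and 11.18 at day 4, a 21.2-fold rise that was even across the day 4 arrays although the arrays before IL-5 were spread. Several genes regarded as hallmarks of the mature cell had only begun to move. Ccr3, the eotaxin receptor, was at 4.99, 4.87 and 4.88 before IL-5 and at 7.39, 7.19 and 7.05 at day 4, a change of 2.30, and its mean at day 10 was 12.49. Siglecf, an inhibitory lectin of eosinophils, rose by 1.19 (8.53 at day 4, 11.51 at day 10). Il5ra, the alpha chain of the IL-5 receptor, rose by 1.16 (6.39 at day 4, 9.50 at day 10). Alox15, a lipoxygenase abundant in eosinophils, rose by 3.99 and the adhesion receptor Adgre4 by 2.79. Padi4, which converts arginine to citrulline in histones, rose by 2.09. Cd24a (0.46) and the leukotriene C4 synthase gene Ltc4s (0.21) did not pass. The day 10 means are set beside the day 4 values without a test, and both comparisons share the arrays before IL-5.

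Genes of late neutrophil granules rose beside those of eosinophils, while genes of early granules did not pass the test. Of 24 measured later granule and maturation genes 21 rose (median 1.61). Of 14 primary granule genes 0 passed both limits (median -0.16), with 3 higher and 4 lower at an unadjusted p under 0.05. Stfa3, a stefin that inhibits cysteine proteases, was at 4.25, 4.42 and 4.46 before IL-5 and at 9.10, 8.77 and 9.12 at day 4, a rise of 4.62 in log2 signal. Its level had been below the lower quartile of gene means, 4.66, in every earlier array, where a signal is not shown to be above background, so no fold is given. Mmp25, a membrane-bound metalloproteinase of neutrophils, rose by 2.93, Ly6g by 2.62 and Olfm4 by 2.37. Among the primary granule genes the cathepsins had the largest values, 0.93 for Ctsc and -0.92 for Ctsg.

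A second block belonged to macrophages and to the handling of lipid. Of 27 measured scavenger receptor and lipid handling genes 19 rose (median 1.48), and of 27 monocyte and macrophage markers 18 rose (median 1.72). Cd36, a receptor for oxidised lipoprotein and fatty acids, was at 5.66, 6.00 and 5.89 before IL-5 and at 9.98, 9.94 and 9.97 at day 4. Lpl, which encodes lipoprotein lipase, was at 6.46, 6.51 and 6.71 and then at 10.30, 10.30 and 10.33. The day 4 arrays of both genes agreed to within a few hundredths and lay clear of the earlier ones, with changes of 4.11 (17.3-fold, adjusted p = 1.05e-07) and 3.75 (13.4-fold, adjusted p = 8.97e-10). The endothelial lipase gene Lipg rose by 4.07, the phospholipid transfer protein gene Pltp by 3.26, the scavenger receptor gene Stab1 by 2.48 and the cholesterol exporter gene Abca1 by 2.44. Dab2, an endocytic adaptor, rose by 4.14 in its brightest probe set, but its other probe set differed by 0.08. Of 22 cholesterol synthesis genes 0 passed both limits (median 0.23), and 11 were higher and 1 lower at an unadjusted p under 0.05.

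All 3 chains of complement C1q, which macrophages secrete, rose. C1qc was at 5.29, 5.53 and 5.45 before IL-5 and at 9.42, 9.37 and 9.45 at day 4, C1qb rose by 3.66 and C1qa by 2.60. The mannose receptor gene Mrc1 rose by 3.69 and Axl, a receptor tyrosine kinase for apoptotic cells, by 2.99. Of 22 complement genes 9 rose (median 0.61), among them also the C5a receptor gene C5ar1 (1.98). Lysosomal genes moved in the same direction, with 10 of 32 called (31.2%, against 3.42% of all genes that rose). In 29 of 32 all day 4 arrays lay above all earlier ones, against 15.3% of all genes. Lgmn, an asparaginyl endopeptidase, rose by 2.71, the proton pump subunit gene Atp6v0d2 by 2.11 and the cathepsin B gene Ctsb by 1.98. Matrix proteases and their inhibitors followed, with 12 of 26 risen, including Adam8 (2.92), the collagenase gene Mmp13 (2.30), the macrophage elastase gene Mmp12 (2.29) and Serpinb2 (3.27), an inhibitor of plasminogen activators. The target of Serpinb2, urokinase (Plau), had a change of 1.17 with an adjusted p of 0.0515 and did not pass.

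Dendritic cell genes were high at day 4 and, for a number of them, near or below their starting level at day 10. Ccr7, the receptor that guides dendritic cells to lymph nodes, was at 7.27, 7.37 and 7.24 before IL-5 and at 10.54, 10.35 and 10.53 at day 4, a change of 3.18 (SE 0.0981, adjusted p = 6.79e-10). Its mean at day 10 was 6.35. Il12b, the p40 chain of interleukins 12 and 23, was between 4.50 and 4.85 before IL-5 and between 7.93 and 8.03 at day 4, with a day 10 mean of 4.62. Day 4 arrays of both genes stood apart from all others. Fscn1, an actin-bundling protein of mature dendritic cells, had a mean of 6.30 at the start, 9.83 on day 4 and 6.23 on day 10. The corresponding means of the chemokine gene Ccl22 were 5.10, 8.38 and 4.93. Of 25 conventional dendritic cell markers 11 rose (median 0.76), and Itgax (0.89) and Irf8 (0.76) did not pass. Socs2, a STAT5-induced inhibitor of cytokine signalling that was on this list, rose by 3.34, and its other probe set differed by 1.29.

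Of 15 plasmacytoid dendritic cell markers 10 rose (median 1.45). Siglech, a lectin of these cells, was at 8.04, 7.77 and 7.84 before IL-5 and at 9.84, 10.15 and 10.04 at day 4, and its day 10 mean was 6.74. The gut-homing receptor gene Ccr9 rose by 2.62 and the nucleic acid sensor gene Tlr7 by 2.50. Presentation of antigen by class II molecules gained in parallel, with 11 of 17 genes risen. The class II transactivator gene Ciita rose by 1.29, the invariant chain gene Cd74 by 1.74 and the costimulatory genes Cd86 and Cd80 by 2.03 and 1.68. Of 19 class I pathway genes 1 rose, H2-T24 at 1.79. The class I count was 2 after quantile normalization and without the first or the second array of either group, and B2m (0.98) lay just under the 2-fold limit.

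**Figure D2:**
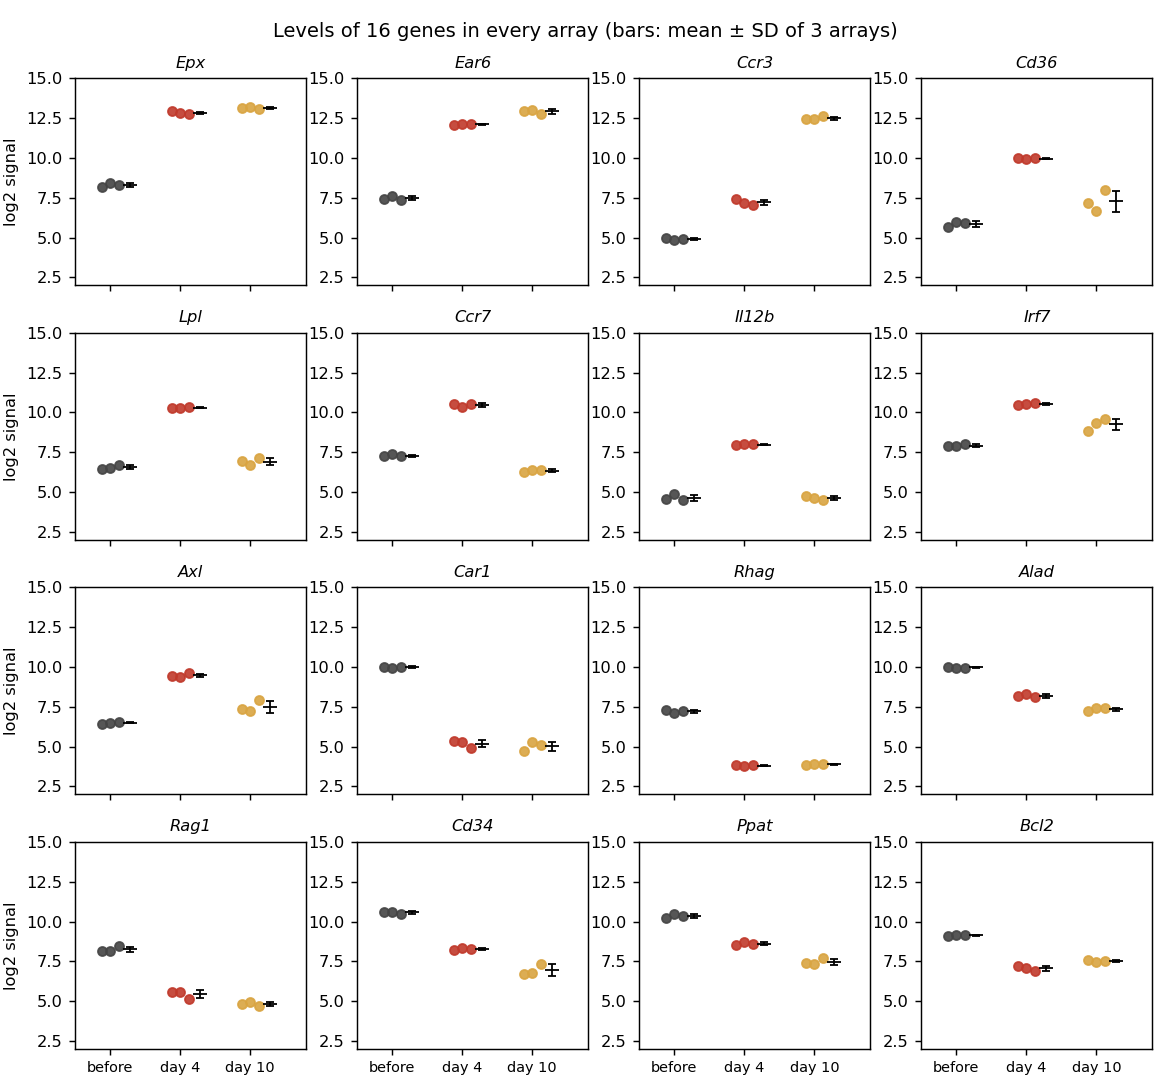
Log2 signal (vertical axis) of 16 genes in each of the 9 arrays, grouped along the horizontal axis by time, with the mean and SD of the 3 arrays as a bar beside the points. Lpl, Ccr7 and Il12b are higher in each day 4 array than in any of the other arrays, while Ccr3 goes from 4.91 to 7.21 to 12.49.

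Genes induced by interferons rose in large part. Of 38 measured effector genes 31 rose (median 1.66), and in 37 of the 38 all day 4 arrays lay above all earlier ones. The background share of genes with that arrangement was 15.3%. Like all gene lists here, this one was chosen with earlier results of these data known, so the difference is a description only. Ifit3, part of an antiviral RNA-binding complex, was at 6.21, 6.39 and 6.42 before IL-5 and at 9.33, 9.51 and 9.49 at day 4, a change of 3.10 (SE 0.150, adjusted p = 1.87e-08). Rsad2, the antiviral enzyme viperin, was at 6.38, 6.45 and 6.84 and then at 9.13, 8.97 and 9.17. Oligoadenylate synthetase genes, which sense double-stranded RNA, rose as well, Oasl2 by 2.97, Oas3 by 2.48 and Oas2 by 2.42. Signalling genes of the pathway changed less, with 4 of 28 risen: Irf7 (2.62), Usp18 (1.84), Stat2 (1.58) and Jak2 (1.35). Of the guanylate-binding and immunity-related GTPases 6 of 9 measured rose, led by Iigp1 (2.37). Of the Schlafen family 5 of 8 rose, led by Slfn5 (2.45), and of the p200 family and DNA sensors 5 of 12, led by Ifi207 (2.61). Of 20 TRIM genes 2 rose, Trim30d (2.77) and Trim30a (1.34), and 2 fell, Trim13 (-1.20) and Trim37 (-1.06).

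Promoters were searched for the interferon-stimulated response element on either strand, in the 250 bases before and 50 after the start site. The element was in 11 of 28 effector gene promoters with a window (39.3%) and in 3.32% of the 15614 promoters of all genes tested. It was in all 4 windows of the guanylate-binding and immunity-related GTPases. The share did not follow the calls in the TRIM family, with 7 of 18 windows (38.9%) although 2 of 20 genes rose. It was 5 of 17 (29.4%) in the CD300 and related receptors, of which 14 of 23 rose. In the interferon signalling genes it was 3 of 26 (11.5%), and 4 of 28 rose. The stretches around it in 4 genes that rose are shown because they hold the shared element at different distances from the start site. They come from RefSeq on build GRCm38.p6, run 5′ to 3′ on the strand of the gene, and have 1 match to the element in capitals.
Ifit3 (chr19:34583382-34583441, plus strand, element 122 bases before the start): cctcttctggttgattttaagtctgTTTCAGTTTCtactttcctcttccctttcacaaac
Rsad2 (chr12:26456538-26456597, minus strand, element 120 bases before the start): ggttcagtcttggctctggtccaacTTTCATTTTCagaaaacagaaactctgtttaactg
Oas3 (chr5:120777700-120777759, minus strand, element 75 bases before the start): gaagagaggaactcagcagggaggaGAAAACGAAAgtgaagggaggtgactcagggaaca
Ifit1 (chr19:34640779-34640838, plus strand, element 85 bases before the start): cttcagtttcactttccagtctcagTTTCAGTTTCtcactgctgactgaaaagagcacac
Ifit3, Rsad2 and Ifit1 carry the marked element in the reverse orientation and Oas3 in the forward one. Ifit3 and Ifit1 each held 2 matches before the start site, and the other match of Ifit1 lies in the printed stretch in lower case. A match describes the sequence and is not evidence of binding.

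Receptors of innate immunity rose in families. Of 23 Toll-like receptor and adaptor genes 10 rose and 0 fell (median 0.89). In 19 of 23 all day 4 arrays were above the earlier ones, against 15.3% of all genes. Tlr13, which recognises bacterial ribosomal RNA, was at 6.33, 6.09 and 6.04 before IL-5 and at 9.04, 9.11 and 9.14 at day 4. Other members rose too, the lipopolysaccharide coreceptor gene Cd14 by 2.18 and Tlr1 by 2.12. Of 24 C-type lectin receptor genes 12 rose, including Clec4a1 (2.84), Clec4n (2.12) and Clec9a (1.93). Of 23 CD300, paired immunoglobulin-like and leukocyte immunoglobulin-like receptor genes 14 rose, including Cd300ld (2.44), Lilrb4a (1.90) and Pirb (1.85). Of 15 Fc receptor genes 5 rose, led by the high-affinity IgG receptor gene Fcgr1 (3.08) and by Fcgr4 (2.83), and Fcrla, a B cell gene, fell by 1.05. The fall of Fcrla was not called without the first array before IL-5. In the MS4A family 5 of 14 rose, led by Ms4a7 (3.89), while Ms4a1, which encodes the B cell antigen CD20, fell by 1.70.

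Many of these genes are neighbours in the genome. Runs of 3 or more adjacent tested genes that all rose numbered 15 and held 55 genes, and runs that all fell numbered 2. The longest was a run of 8 genes in the Clec4 cluster of chromosome 6, and a Cd300 run on chromosome 11 held 5. Other runs were Ms4a7, Ms4a4a and Ms4a4c, the C1q genes, the class II genes H2-Ab1, H2-Aa and H2-Eb1, and Ifit2, Ifit3 and Ifit3b beside the lysosomal lipase gene Lipa. Members of some of these clusters, though not of every run, are copies of one another, and probe sets of near-identical copies may share signal. Ifit3b, a near copy of Ifit3, was at 7.44, 6.44 and 7.87 in the day 4 arrays, so that its second day 4 array stood lower than the others, and it still rose by 2.29 (adjusted p = 0.000132).

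All promoters were searched in the same window for the PU.1 element, spelled GAGGAAGT on either strand, which was in 7.13% of the 533 promoters of genes that rose, 3.24% of the 340 of genes that fell and 2.73% of all. By list it was in 2 of 20 windows of the macrophage markers (10.0%) and 5 of 22 of the later neutrophil genes (22.7%). Among the primary granule genes, of which none passed both limits, it was in 4 of 13 windows (30.8%). The stretches of 2 macrophage genes that rose are shown to place it, with the element in capitals, from RefSeq on build GRCm38.p6 and on the strand of the gene.
C1qc (chr4:136893077-136893134, minus strand, element 195 bases before the start): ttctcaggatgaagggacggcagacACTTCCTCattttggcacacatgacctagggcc
Fcgr4 (chr1:171018877-171018925, plus strand, element 24 bases before the start): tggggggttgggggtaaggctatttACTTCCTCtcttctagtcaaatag
Both promoters carry it in the reverse orientation.

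Many immediate early genes were high at day 4, days after IL-5 was first added, while feedback inhibitors were mixed. Of 29 AP-1, EGR, KLF and related factors 15 rose and 1 fell (median 1.06). Fos, an AP-1 subunit, was at 6.08, 5.98 and 6.28 before IL-5 and at 9.36, 9.33 and 9.55 at day 4, a 9.85-fold rise with a day 10 mean of 7.35. Nr4a3, an orphan nuclear receptor, had means of 5.28, 7.85 and 5.08 at the 3 times. Of 30 MAP kinase phosphatase and other feedback inhibitor genes 6 rose and 1 fell (median 0.02). The phosphatase gene Dusp1 rose by 3.31 and was still at 10.41 at day 10, while Spred2 fell, with a change of -1.37. The other probe set of Spred2 differed by -0.70, under the 2-fold limit. Of 25 NF-kB subunit, inhibitor and feedback genes 9 rose. In 23 all day 4 arrays were above the earlier ones, against 15.3% of all genes. Traf1, an adaptor of tumour necrosis factor receptors, went from 5.01, 5.00 and 4.97 to 7.56, 7.53 and 7.84 and had a day 10 mean of 5.01. The alternative-pathway genes Relb (1.82) and Map3k14 (1.63) rose, and Nfkb2 (0.98) lay under the 2-fold limit. The inhibitor gene Cish and the kinase gene Pim1, both known targets of STAT5, rose by 1.23 and 1.16. Targets of STAT5 were not counted as a set, and Bcl2, Ccnd2 and Myc, described below, were lower at day 4.

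Secreted signals and their receptors were more mixed. Of 36 cytokine and growth factor genes 10 rose and 2 fell. Il1b, which encodes interleukin 1 beta, was at 5.69, 5.75 and 5.62 before IL-5 and at 9.22, 9.15 and 9.25 at day 4, and its natural antagonist Il1rn rose by 1.80. Igf1, an insulin-like growth factor made by macrophages, rose by 2.60. Il12a, the partner of Il12b in interleukin 12, fell by 1.63. The count of falling cytokine genes was 1 after quantile normalization and without the third day 4 array. Of 23 chemokine genes 8 rose, led by Ccl22 (3.28), the membrane-anchored Cxcl16 (3.26) and Ccl6 (2.69). Of 41 chemoattractant receptor genes 17 rose, among them Ptafr (2.25), the receptor of platelet-activating factor. Of 37 cytokine receptor chain genes 10 rose and 2 fell, with Tnfrsf11a, the receptor RANK, at 2.08, the macrophage growth factor receptor gene Csf1r at 1.32 and Cd27 at -1.83. Of 25 eicosanoid genes 6 rose, including the inducible cyclooxygenase gene Ptgs2 (2.23) and the prostaglandin D synthase gene Hpgds (1.51). Of 19 guidance genes 6 rose, led by Sema6d (2.29) and Sema7a (1.72).

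Genes of oxidant chemistry changed in both directions, and a minority of the genes of cell movement and adhesion rose. Of 23 phagocyte oxidase and nitric oxide genes 4 rose and 2 fell. Cybb, the catalytic subunit of the phagocyte oxidase, rose by 1.54, the haem oxygenase gene Hmox1 by 1.35 and the arginase gene Arg2 by 1.56. The quinone reductase gene Nqo1 was at 8.22, 7.79 and 8.42 before IL-5 and at 6.98, 7.13 and 6.74 at day 4, a fall of 1.19, and its day 10 mean was 9.83. Gclm, the regulatory subunit of glutathione synthesis, fell by 1.12. Of 34 actin and migration genes 8 rose (23.5%, against 3.42% of all genes), led by the protein kinase C substrate gene Marcks (2.29). In 29 of the 34 all day 4 arrays were above all earlier ones, against 15.3% of all genes. Of 31 adhesion genes 4 rose (12.9%, median 0.34), among them the integrin genes Itgam (1.82), Itgb5 (1.32) and Itgb2 (1.32). Mcpt8, a basophil protease, was at 10.18, 10.02 and 10.11 and then at 8.88, 8.89 and 8.95, and it was the only 1 of 23 mast cell and basophil genes to fall.

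Red cell genes had the sharpest falls. Of 22 measured membrane and cytoskeleton genes 11 fell and 0 rose (median -0.97). Car1, a carbonic anhydrase, was at 10.03, 9.93 and 10.01 before IL-5 and at 5.35, 5.27 and 4.94 at day 4. It was 27.9-fold lower, the only fall past 16-fold. Rhag, the Rh-associated ammonia channel, was at 7.32, 7.09 and 7.21 and then at 3.83, 3.76 and 3.83, which put it below the lower quartile of gene means. The water channel gene Aqp1 (-3.08), the membrane antigen gene Ermap (-3.02) and the Rhesus antigen gene Rhd (-2.75) fell, whereas the anion exchanger gene Slc4a1 (-0.84) and the ankyrin gene Ank1 (-0.77) did not pass. Cldn13, a claudin of erythroid cells, fell by 3.41, and its day 4 arrays were spread, at 4.51, 4.89 and 3.97.

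Fewer calls were made among haem synthesis genes and erythroid regulators. Of 20 haem and iron genes 6 fell (median -0.53). Alad, the second enzyme of haem synthesis, was at 9.99, 9.97 and 9.96 before IL-5 and at 8.18, 8.28 and 8.08 at day 4. The arrays of each group lay close together beside the fall of 1.79. Alas2, the first enzyme in red cells, fell by 1.46, and the porphyrin transporter gene Abcb6 (-1.30) and the transferrin receptor gene Tfr2 (-1.27) fell too. Of 18 transcription factor and receptor genes 4 fell: Hemgn (-1.69), the globin gene activator Klf1 (-1.45), the erythropoietin receptor gene Epor (-1.42) and Gfi1b (-1.11). Myb (-0.71) and Zfpm1 (-0.79) did not pass. Among 14 megakaryocyte and platelet genes, of the lineage most closely related to red cells, 0 passed both limits, with a median of -0.09. At an unadjusted p under 0.05, 2 of them were higher and 3 lower.

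B lineage and progenitor genes fell with them. Of 24 pre-B cell and recombination genes 14 fell (median -1.34). Rag1, which cuts the immunoglobulin loci for recombination, was at 8.16, 8.17 and 8.45 before IL-5 and at 5.58, 5.57 and 5.15 at day 4. Ebf1, the factor that specifies B cells, was at 8.44, 8.59 and 8.51 and then at 5.84, 5.96 and 5.77. No array of one group came near the other for either gene, with changes of -2.82 and -2.65. The pre-B receptor genes Vpreb3 (-2.92) and Igll1 (-2.01), the receptor signalling gene Cd79a (-2.64) and the coactivator gene Pou2af1 (-2.42) fell as well. The interleukin 7 receptor gene Il7r was the exception on this list, with a rise of 1.01 that was under 2-fold without the first or the third array before IL-5. Of 26 stem and progenitor regulators 7 fell. Cd34, the sialomucin that marks progenitors, was at 10.63, 10.59 and 10.50 and then at 8.23, 8.36 and 8.27, and Sox4 (-1.40), Meis1 (-1.27) and Hoxa9 (-1.12) fell as well. Among lymphoid cytotoxic and T cell genes Klrk1, an activating NK receptor, rose by 2.81 with a day 10 mean of 5.23 against 7.90 at day 4, and Gzma (-1.49), Gzmb (-1.27), Cd2 (-1.23) and Eomes (-1.21) fell. Other genes among the 25 largest falls were the kinase-like gene Trib2 (-2.87), the GTPase gene Gem (-2.84) and the melanocortin receptor gene Mc5r (-2.77). Bcl2, a survival gene, was at 9.08, 9.15 and 9.15 before IL-5 and at 7.21, 7.09 and 6.91 at day 4.

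Genes for growth and division fell by smaller amounts and in large numbers. In 40 of 40 ribosome biogenesis genes all day 4 arrays were below all earlier ones, against 28.3% of all genes, and 22 fell (median -1.05). This list too was chosen with earlier results of these data known. Dkc1, the pseudouridine synthase of small nucleolar ribonucleoproteins, was at 10.01, 10.03 and 9.92 before IL-5 and at 8.43, 8.48 and 8.50 at day 4. Polr1b, a subunit of RNA polymerase I, fell by 1.42. Of 30 nucleotide, folate and serine synthesis genes 17 fell (median -1.05). Ppat, the first enzyme of purine synthesis, was at 10.21, 10.49 and 10.36 and then at 8.51, 8.69 and 8.57. The folate enzyme gene Mthfd1 fell by 1.80, and the mean of the pyrimidine gene Cad went from 9.21 to 7.72. Myc, a transcription factor that activates many genes of both groups, was at 10.65, 10.70 and 10.57 and then at 9.34, 9.56 and 9.31, while Mxd1, which competes with it for the shared partner MAX, rose by 1.80. Of 13 genes of this network 1 rose and 2 fell.

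Of 42 DNA replication genes 16 fell (median -0.90). In 41 all day 4 arrays were below all earlier ones, against 28.3% of all genes. Gins1, a subunit of the replicative helicase, fell by 1.43, and the helicase subunit gene Mcm7 (-1.24) and the clamp loader gene Rfc3 (-1.15) fell too. Mitotic genes moved in the same direction by less, with 1 called, the kinase gene Nek2 (-1.28). All day 4 arrays were below all earlier ones in 42 of 43 mitotic genes, again against 28.3% of all genes. Their median was -0.62, and 41 of the 43 were lower at an adjusted p under 0.05 with no fold limit. Of 27 cyclins, kinases and inhibitors 4 fell, including Ccnd2 (-1.26) and Skp2 (-1.06). Chromatin enzymes included 3 arginine methyltransferase genes among the falls, Prmt7 (-1.32), Prmt1 (-1.21) and Prmt5 (-1.10).

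The machinery of protein synthesis outside the nucleolus lay mostly under the 2-fold limit. Of 29 cytosolic ribosomal protein genes 0 passed both limits (median -0.32), with 0 higher and 19 lower at an unadjusted p under 0.05. Of 30 mitochondrial ribosomal protein genes 0 passed both as well, although their median was -0.69 and 28 were lower at an unadjusted p under 0.05. The cytosolic count was 1 without the first array of either group, and the mitochondrial count reached 2 without the third array before IL-5 or the second day 4 array. Of 24 mitochondrial import and chaperone genes 5 fell, led by Timm8a1 (-1.51) and the chaperonin gene Hspd1 (-1.33), and 3 fell after quantile normalization. Of 30 nuclear pore and import genes 5 fell, including Nup43 (-1.48) and the GTPase gene Ran (-1.10). Of 38 citric acid cycle and respiratory chain genes 4 fell, including the cycle enzyme genes Idh3a (-1.27) and Suclg1 (-1.14), and 34 were lower with no fold limit. Fuel transport changed in both directions. Slc16a1, a lactate transporter, had a mean of 10.11 before IL-5 and 8.11 at day 4, 4.00-fold lower, while its relative Slc16a3, which exports lactate, rose by 1.15 and the glycolytic regulator gene Pfkfb3 by 1.66. Among amino acid transporters the cystine carrier gene Slc7a11 rose by 2.91 and the glutamine carrier gene Slc38a5 fell, with a change of -2.42. Of 26 autophagy genes 0 passed both limits, with 10 higher and 2 lower at an unadjusted p under 0.05. Of 29 endoplasmic reticulum chaperone genes 0 passed both, with 7 higher and 3 lower at that unadjusted p. No background share was computed for these counts.

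**Figure D3:**
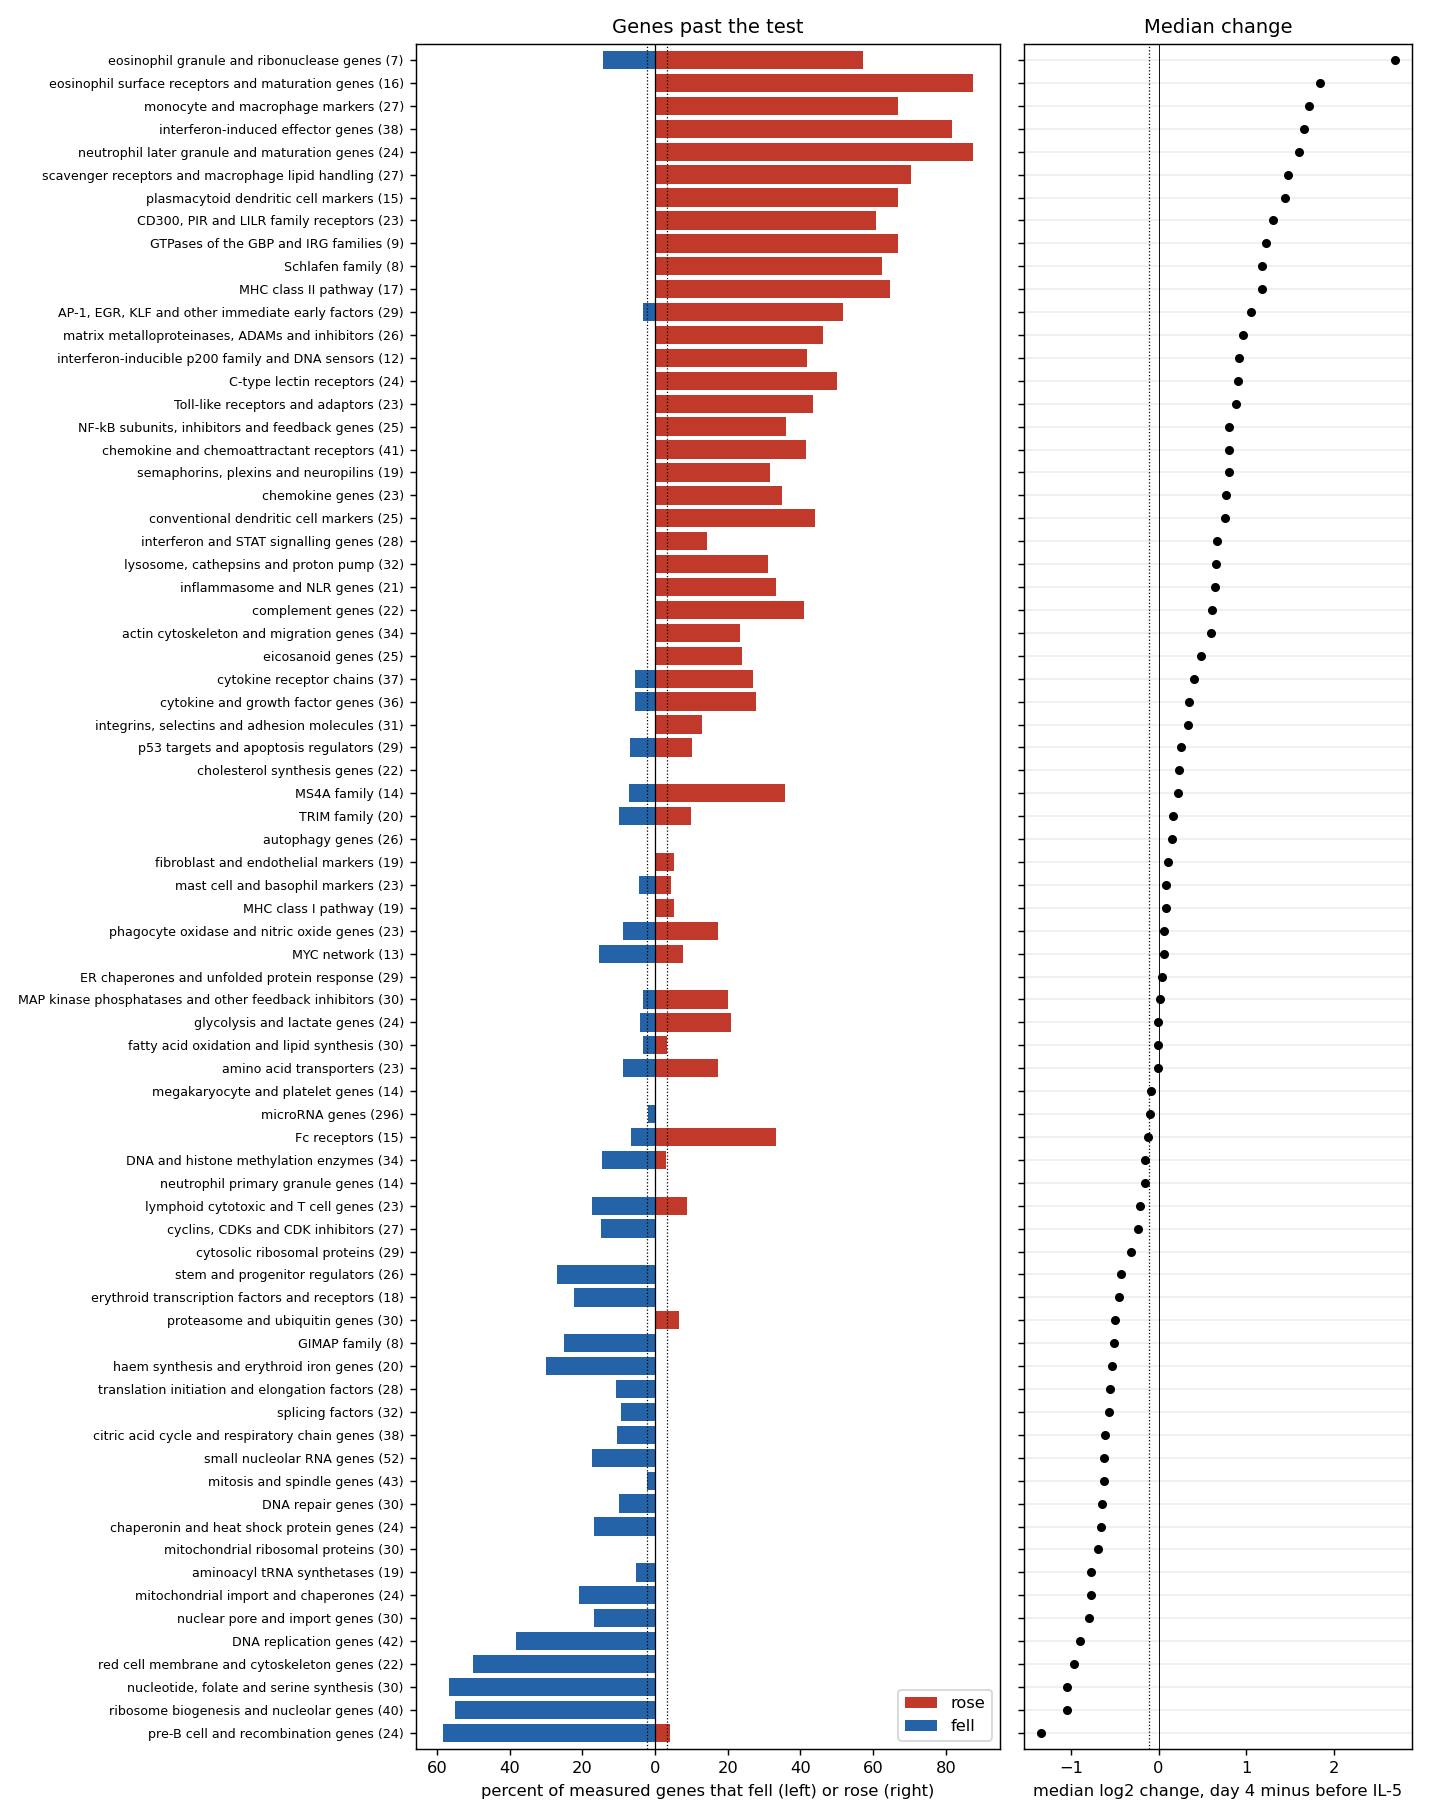
For each gene list with at least 7 measured genes (number in brackets), the left panel shows the percent of genes that rose (red, to the right of 0) or fell (blue, to the left), with dotted lines at the shares over all genes, 3.42% and 2.11%. The right panel shows the median log2 change, with a dotted line at -0.11, the median over all genes.

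All promoters were also searched for the E-box to which MYC and related factors bind, spelled CACGTG, which reads the same on both strands. It was in 13.8% of the promoters of genes that fell, 6.38% of those of genes that rose and 8.38% of all. Among ribosome biogenesis genes it was in 8 of 36 windows (22.2%). It was as frequent in lists that did not fall, in 9 of 26 windows of lysosomal genes (34.6%), of which none fell, and in 5 of 22 of autophagy genes (22.7%). The stretches of 2 ribosome biogenesis genes are shown to place it close to the start site, with the E-box in capitals, from RefSeq on build GRCm38.p6 and on the strand of the gene.
Nop2 (chr6:125131798-125131853, plus strand, E-box 60 bases before the start): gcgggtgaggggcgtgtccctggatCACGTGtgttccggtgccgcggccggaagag
Utp18 (chr11:93885767-93885811, minus strand, E-box 20 bases before the start): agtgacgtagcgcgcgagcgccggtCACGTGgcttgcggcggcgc
Promoters of the 2 classes also differed in composition. The median number of CpG pairs in a window was 8 in genes that rose, 19 in genes that fell and 15 in all genes, and the median GC content was 55.7%, 58.0% and 57.7%. Other motifs were more frequent in the genes that rose, such as the AP-1 element TGANTCA (10.1% against 4.41% in genes that fell and 6.98% in all) and the NF-kB element (1.5%, 0% and 0.416%). The ETS element CCGGAAGT was in 1.69% of promoters that rose, 8.82% of those that fell and 5.58% of all, and the E2F element TTTCCCGC in 0.75%, 3.53% and 1.59%. The GATA element AGATAA was in 9.94%, 6.18% and 9.55%. The KLF1 element CCACACCC was in 6.57%, 2.94% and 3.73%, and the GAS element TTCNNNGAA in 9.19%, 9.12% and 7.83%. These shares are descriptions without a test, and windows were at hand for 78.3% of the genes.

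**Figure D4:**
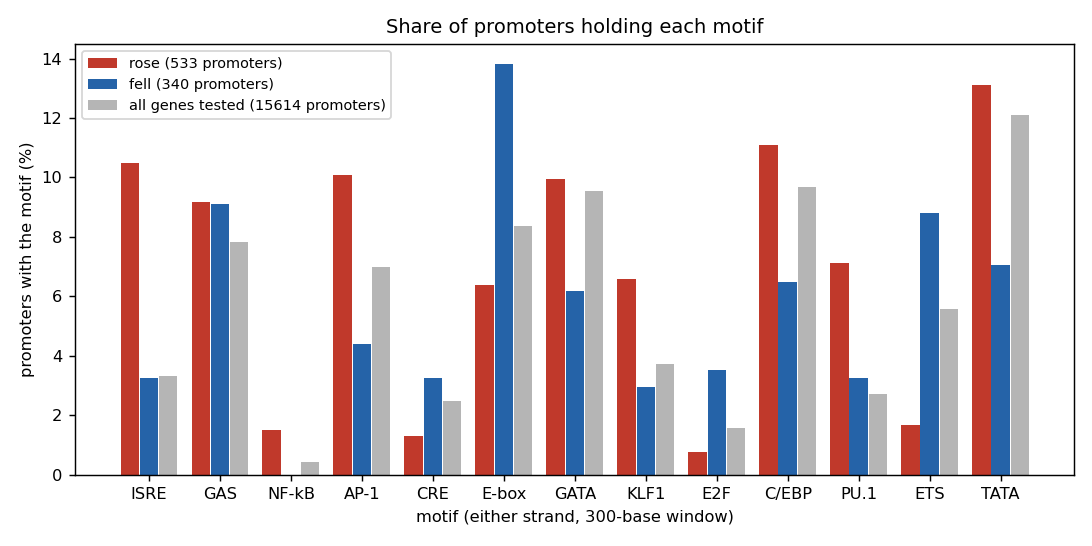
Percent of promoter windows of 300 bases that hold each of 13 motifs, for genes that rose (red, 533 promoters), genes that fell (blue, 340) and all genes tested (grey, 15614). The interferon-stimulated response element is in 10.5% of promoters of genes that rose against 3.24% and 3.32%, and the E-box in 13.8% of those that fell against 6.38% and 8.38%.

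One of the 2 falling runs of neighbouring genes was the microRNA cluster of Mir17hg, a target of MYC that promotes proliferation, on the plus strand of chromosome 14. The array probes for a hairpin also detect longer RNA from the locus, so the mature microRNAs themselves were not measured. Of 296 microRNA genes 0 rose and 6 fell, and 5 of the 6 were of this cluster. The share that fell, 2.0%, was near the 2.11% of all genes, so the class as a whole did not stand out. Of the 9 mature sequences listed for these genes, 1 per hairpin is shown to place the seeds that hairpins have in common, and the opposite arms are left out. They come from RefSeq on build GRCm38.p6 and have the seed, bases 2 to 8, in capitals.
mmu-miR-17-5p (chr14:115043684-115043706): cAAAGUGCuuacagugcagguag
mmu-miR-20a-5p (chr14:115044183-115044205): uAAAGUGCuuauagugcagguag
mmu-miR-18a-5p (chr14:115043867-115043889): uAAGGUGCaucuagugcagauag
mmu-miR-19a-3p (chr14:115044048-115044070): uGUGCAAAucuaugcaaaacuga
mmu-miR-19b-3p (chr14:115044358-115044380): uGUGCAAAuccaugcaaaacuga
The miR-17 and miR-20a sequences share 1 seed and the miR-19 sequences another and miR-18a shares its seed with none of the other 4 shown. The gene Mir20a was at 6.52, 6.93 and 6.77 before IL-5 and at 5.60, 5.64 and 5.57 at day 4, a change of -1.14 (SE 0.112, adjusted p = 6.7e-06). Mir19a (-1.31), Mir18 (-1.19) and Mir19b-1 (-1.18) fell too, and the host transcript Mir17hg went from 6.70, 6.35 and 6.12 to 4.81, 5.24 and 5.18. Every probe set of the cluster had all day 4 arrays below all earlier ones. Mir17 had the smallest change, -1.03, and was under the 2-fold limit after quantile normalization (-0.97). Mir19b-1 was under it without the second array before IL-5 (-0.98). The remaining microRNA gene that fell was Mir181b-1 on chromosome 1 (-1.14).

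The other falling run joined Rcc1, the nuclear exchange factor of RAN, with the small nucleolar RNA genes Snora73a and Snora73b that lie beside it. The changes were -1.13 for Rcc1, -1.28 for Snora73a and -1.53 for Snora73b. Small nucleolar RNAs guide the chemical modification or the cleavage of ribosomal RNA, and this class was picked after its values had been seen. Of 52 measured genes of the class 9 fell (17.3%, against 2.11% of all genes) and 0 rose (median -0.62). In 37 all day 4 arrays were below the earlier ones, against 28.3% of all genes. Snord52 was at 7.40, 7.87 and 7.57 before IL-5 and at 5.62, 5.58 and 5.35 at day 4, a change of -2.10, and Snord104 fell by 1.54. Many such RNAs are cut from introns of other genes, and their probe sets may also detect the host transcript.

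**Figure D5:**
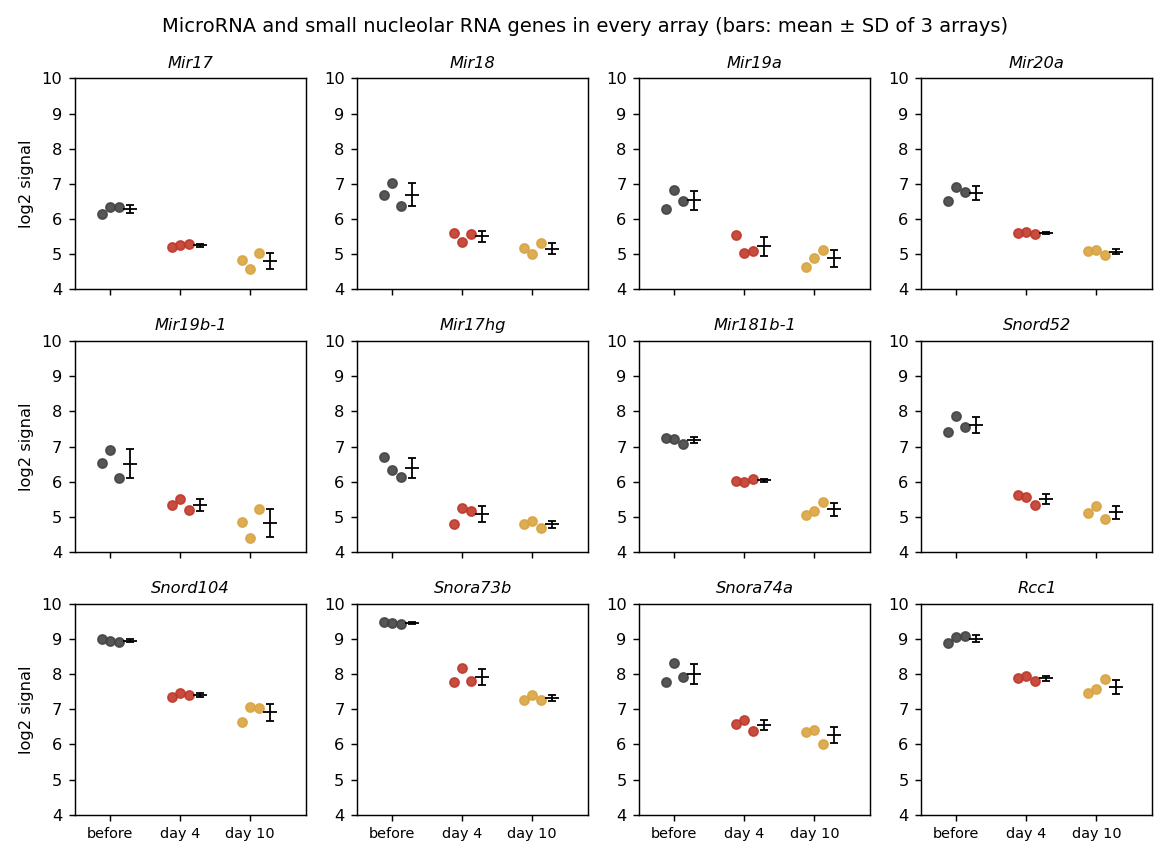
Log2 signal (vertical axis) of 7 microRNA genes or hosts, 4 small nucleolar RNA genes and Rcc1, the neighbour of Snora73b, in each array. The mean and SD of the 3 arrays of a group are shown as a bar. In every panel the 3 day 4 arrays lie below the 3 arrays before IL-5.

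Spread within a group was low for most genes, with a median SD of 0.13 before IL-5 and 0.117 at day 4. An SD above 0.5 was found in 89 genes before IL-5 and in 39 at day 4. The least even gene before IL-5 among those above the median level was Usp17ld, a deubiquitinase of a multicopy family, at 7.34, 5.46 and 7.83. At day 4 it was Tox4, at 8.90, 6.81 and 8.22. Both differed between the groups by less than their spread, with changes of 0.64 and 0.45 that did not pass (adjusted p = 0.444 and 0.395).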

How the data were processed

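RNA of cultured marrow cells was measured on 9 Affymetrix Mouse Gene arrays, 3 per group, of which 6 are compared here. Per the submitters' processing notes and the labels, the authors deposited log2 signals from the default gene-level RMA summary of Affymetrix Expression Console 1.1.2637.26569. RMA compresses changes of dim genes and forces like distributions on all arrays. The array's annotation release was not given in the sources. Groups came from the sample titles. Precision is limited by having 3 arrays per group.

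Of 35557 probe sets, 21789 named 1 gene, 1621 several and 12147 none in the platform annotation. Only the first kind was tested. For 999 genes with several probe sets the brightest was kept, leaving 19938 genes. Entrez identifiers were matched to the RefSeq GRCm38.p6 table, which changed 0 symbols and left 91 without a current entry.

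A linear model with 3 group means was fitted to all 9 arrays (limma 3.58.1 under R 4.3.3, moderated by eBayes, two-sided), with Benjamini-Hochberg adjustment over all 19938 genes. The script was tested on simulated data. The members and the 72 gene lists (1948 memberships, 1784 measured) were chosen with earlier results of these data known. Genes named are the 25 largest rises and 25 largest falls, up to 5 called members and up to 2 others of each list, cell type markers, and the genes with the largest SD in a group. A few further list members were chosen after their values were seen. Alternatives were other scalings, filters, fits and single arrays left out.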

Additional observations from a re-analysis of the deposited data

Results flagged for a closer look

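Probe sets outside the gene comparison also changed by day 4 of IL-5. Of the 12147 probe sets that name no gene in the table used here, 237 were higher and 150 lower at day 4 by the same limits. Of the 1621 that name several genes, 46 were higher and 43 lower. They are given as counts because the table assigns no single gene to them.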

How the results depend on the processing

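The 682 rises and 420 falls kept to within 1.5 times of these counts under every alternative run except the loss of the fold limit, which gave 2295 rises and 3984 falls at adjusted p alone. Leaving out 1 array at a time gave 664 to 696 rises and 387 to 472 falls. Replicate numbers were taken from the sample titles, and 1 array before IL-5 has another number in its description. By the titles, deviations of same-numbered arrays correlated at 0.015, -0.061 and -0.119. These values do not decide whether the arrays were paired, because a weak pairing could go unseen and the numbering itself is uncertain. A fit with the replicate number as a block called 683 rises and 420 falls. Of the 501 genes tracked by name 456 kept their side of the limits whichever array was left out, and the 25 largest rises and falls all did. No tracked gene changed direction. Dim genes and changes near 2-fold are where these arrays are least certain.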
